A study of Homo sapiens with 2 samples.

Results

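The mitochondrially encoded genes are the genes carried by the small circular chromosome inside mitochondria. They were taken as every gene of the deposited count table whose symbol starts with "MT-", which gave 37 genes of the 60671 genes listed. Of these, 13 code for proteins, 2 for ribosomal RNAs and 22 for transfer RNAs, and all 37 were found on chromosome M of the GENCODE 29 annotation of GRCh38. C4-2B cells, a castration-resistant prostate cancer line, were treated with vehicle or with 1 µM (R)-9b, an inhibitor of the tyrosine kinase ACK1, overnight, and 1 poly-A-selected RNA library was sequenced from each condition. Both groups are the same unmodified line and differ by the compound. With 1 library per condition no difference below has a replicate check, and each interval is a 95% counting interval that compares these 2 libraries.

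The GEO labels name breast as the tumour type of this line. The prostate marker KLK3, which encodes prostate-specific antigen, stood at 2202 CPM (TMM-scaled counts per 1000000) with vehicle and 5273 CPM with (R)-9b. FOLH1, which encodes prostate-specific membrane antigen, stood at 791 and 789 CPM. The prostate markers KLK2, HOXB13, TMPRSS2 and SLC45A3 ranged from 231 to 359 CPM with vehicle and from 330 to 822 CPM with (R)-9b. The 7 breast markers summed to 3.26 CPM and 12.4 CPM, with SCGB2A2 at 0 in both libraries. The 5 immune markers summed to 0.135 CPM and 0.106 CPM, and the 6 stromal and endothelial markers to 31.1 CPM and 46.7 CPM, of which COL1A1 and VWF made up most. The vehicle library held 65207444 gene counts in all, the (R)-9b library 57653965.

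The mitochondrial chromosome is transcribed from both strands as long RNAs that span many genes, by the polymerase POLRMT with the factors TFAM and TFB2M. The transfer RNAs lie between the other genes, and cutting at their ends frees the mRNAs and ribosomal RNAs, after which MTPAP adds poly-A tails to most mRNAs. The proteins are core subunits of respiratory complexes I, III and IV and of the ATP synthase, complex V, whose other subunits are encoded in the nucleus.

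Several of these mRNAs end before their stop codon is complete, and the poly-A tail supplies the missing bases. Because the libraries were poly-A selected, the last 30 bases of all 13 coding genes are shown, taken from the GENCODE 29 transcripts, with the annotated end codon or its part in capitals.
MT-ND1: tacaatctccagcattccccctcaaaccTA
MT-ND2: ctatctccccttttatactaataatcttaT
MT-CO1: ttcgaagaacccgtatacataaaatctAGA
MT-CO2: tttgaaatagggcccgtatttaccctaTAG
MT-ATP8: tcgcttcattcattgcccccacaatccTAG
MT-ATP6: gtaagcctctacctgcacgacaacacaTAA
MT-CO3: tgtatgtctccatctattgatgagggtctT
MT-ND3: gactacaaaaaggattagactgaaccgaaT
MT-ND4L: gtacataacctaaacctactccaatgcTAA
MT-ND4: accccgacatcattaccgggttttcctctT
MT-ND5: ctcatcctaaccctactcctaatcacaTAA
MT-ND6: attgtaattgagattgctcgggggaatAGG
MT-CYB: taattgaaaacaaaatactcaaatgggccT
The annotated end was incomplete in 6 genes and complete in 7. Among the 7, the last annotated base of MT-ATP6 is also the first base of MT-CO3. MT-CO1 and MT-ND6 end in AGA and AGG.

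Mitochondrially encoded genes took 1.49% (exact 95% interval 1.492 to 1.497) of the vehicle library and 9.54% (9.534 to 9.549) of the (R)-9b library. The 13 coding genes are called mRNAs here, although some of them share 1 mRNA. They took 1.07% and 7.30%, the 2 ribosomal RNAs 0.420% and 2.24%, and the 22 transfer RNAs 0.00185% and 0.00451%. All 3 classes therefore took a larger share of the (R)-9b library. Among all genes ranked by count, 1 of the first 10 was mitochondrial in vehicle (MT-RNR2, number 8), against 7 of the first 10 in (R)-9b, where MT-RNR2 was number 1, MT-CO1 number 2 and MT-ND4 number 3. Counts are relative to the library, so more mitochondrial RNA per cell and less nuclear-encoded mRNA per cell cannot be told apart.

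**Figure D1:**
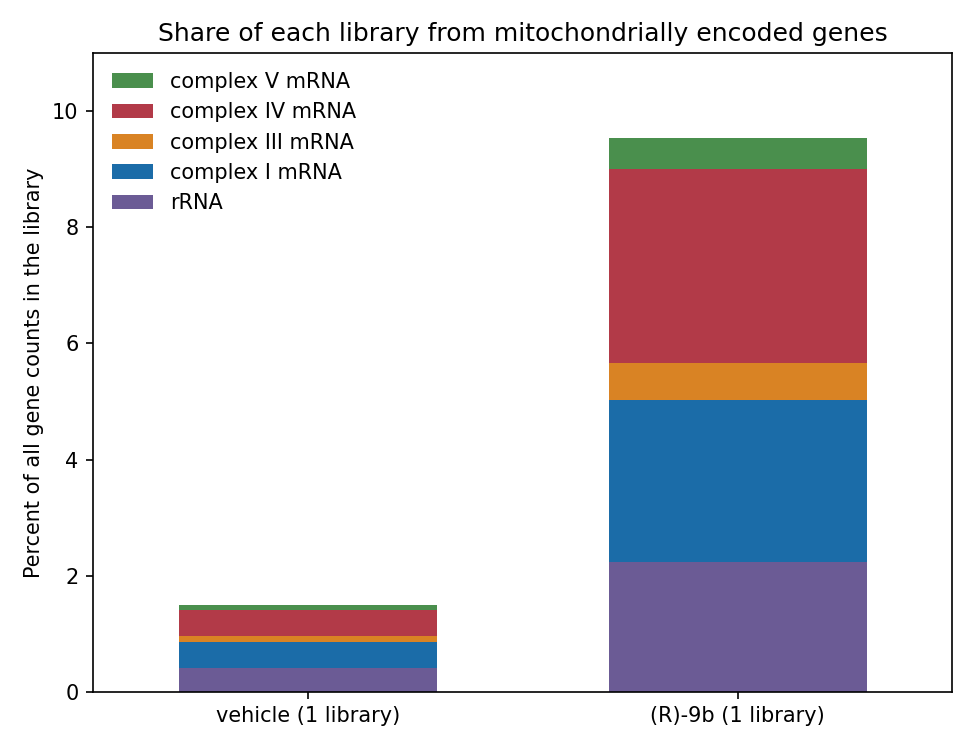
Percent of all gene counts in each library that came from mitochondrially encoded genes, stacked by ribosomal RNA and by the complex of the coding genes (transfer RNAs are too few to show). The stack reaches 1.49% in vehicle and 9.54% in (R)-9b, and every layer is thicker in (R)-9b.

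Ratios below are (R)-9b over vehicle after TMM scaling, on the log2 scale. A gene was compared where it had at least 10 counts over both libraries, and called when its whole 95% interval lay above a ratio of 2. Of the 37 genes, 19 had enough counts and 17 of these were called. Over all 23446 genes compared, 4.2% were called in this direction, and the median log2 ratio was -0.0049. The whole interval lay above a ratio of 4 for 16 mitochondrial genes (all 13 mRNAs, both ribosomal RNAs and MT-TE), against 0.99% of all genes. MT-TE, with 0 vehicle and 15 (R)-9b counts, passed the minimum only through the (R)-9b library and is not called when counts are halved. The 13 mRNAs together had a log2 ratio of 2.83 (2.823 to 2.831), a ratio of 7.10, the ribosomal RNAs 2.47 (2.467 to 2.479), a ratio of 5.55, and the transfer RNAs 1.35 (1.25 to 1.45), a ratio of 2.55.

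The classes thus differed among themselves, by amounts that do not depend on how the libraries were scaled. The log2 ratio of the ribosomal RNAs was lower than that of the mRNAs by a difference of -0.35 (-0.361 to -0.347), and that of the transfer RNAs by -1.48 (-1.58 to -1.38). These intervals cover counting error only. Across the 13 mRNAs the single log2 ratios ran from 2.47 (MT-ND3) to 3.16 (MT-CO3). Of the 1162 genes with at least as many counts over both libraries as MT-ATP8, the mRNA with the fewest, 17 had a log2 ratio as high as MT-ND3 or higher. These were the 13 mRNAs, MT-RNR2 and 3 nuclear genes, of which MTATP6P1 and MTCO1P12 are nuclear copies of mitochondrial genes and MALAT1 is a nuclear-retained long non-coding RNA, with a log2 ratio of 2.55. Both cut-offs were taken from the mRNAs themselves, so all 13 passed by construction. The count cut-off was on the sum of both libraries, so a gene could pass through the library where it was high.

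**Figure D2:**
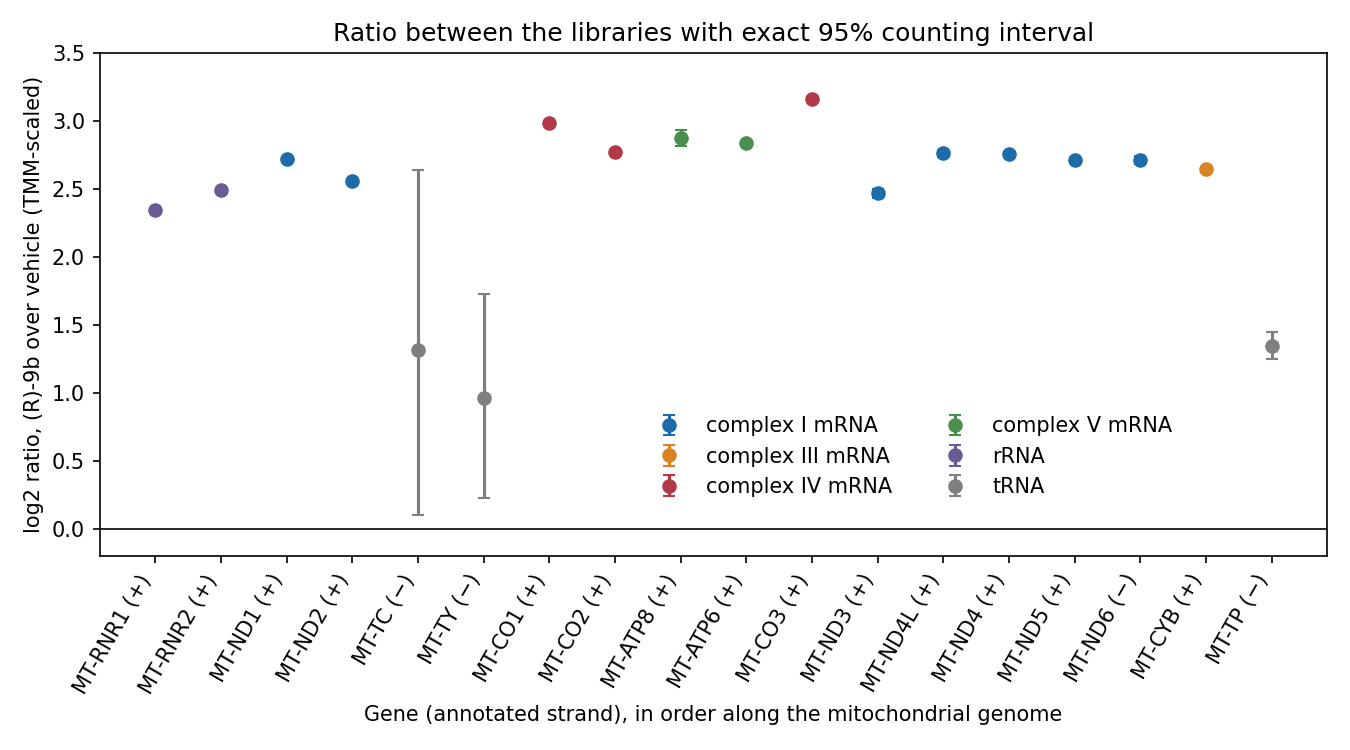
Log2 ratio of (R)-9b over vehicle (TMM-scaled) for the mitochondrial genes that were compared, in genome order, coloured by class, with exact 95% counting intervals. The mRNAs lie between 2.47 and 3.16, the ribosomal RNAs at 2.34 and 2.49, and the 3 transfer RNAs with counts in both libraries between 0.96 and 1.35. MT-TE, with 0 vehicle counts, has no point.

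Complex IV, cytochrome c oxidase, passes electrons to oxygen, and its mitochondrial genes, summed, had the highest ratio of the complexes, although MT-CO2 alone lay below both complex V genes. MT-CO1, the catalytic core subunit (chrM:5904-7445, plus strand), had 163152 vehicle counts and 1096286 (R)-9b counts, a log2 ratio of 2.99 (2.979 to 2.994). MT-CO2, which takes electrons from cytochrome c (chrM:7586-8269), had 71700 and 415056 counts, a log2 ratio of 2.77 (2.760 to 2.783). MT-CO3 (chrM:9207-9990) had 55330 and 419121 counts, a log2 ratio of 3.16 (3.146 to 3.172). MT-CO3 had the highest ratio of all 37 genes among those with counts in both libraries and at least 10 in total, and its log2 ratio exceeded that of MT-CO2 by 0.39 (0.371 to 0.405). The RNA counts of genes for 1 enzyme thus did not differ by equal amounts between these libraries, beyond counting error. Summed over its genes, complex IV had a log2 ratio of 2.97, higher than complex I by 0.26 (0.256 to 0.272).

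Complex V makes ATP from the proton gradient, and its mitochondrial genes, the proton-channel subunit MT-ATP6 and the small subunit MT-ATP8, are carried by 1 shared mRNA. MT-ATP8 (chrM:8366-8572) shares 46 of its 207 bases with MT-ATP6 (chrM:8527-9207). The shared stretch is shown because reads inside it cannot be assigned to 1 gene, with the start codon of MT-ATP6 and the end codon of MT-ATP8 in capitals.
MT-ATP8/MT-ATP6 overlap: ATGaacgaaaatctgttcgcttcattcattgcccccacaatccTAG
MT-ATP8 had 2795 vehicle counts and 17410 (R)-9b counts, a log2 ratio of 2.88 (2.819 to 2.935). MT-ATP6 had 47583 and 288125 counts, a log2 ratio of 2.84 (2.822 to 2.850). Although their counts differed widely, the log2 ratios of this pair differed by 0.041, with an interval that includes 0 (-0.018 to 0.10). MT-CO3 begins on the last base of MT-ATP6, and its log2 ratio was higher than that of MT-ATP6 by 0.32 (0.304 to 0.342).

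Complex I takes electrons from NADH, and 7 of its membrane-arm subunits are mitochondrial. MT-ND4 (chrM:10760-12137), the most abundant of them by counts, had 109344 vehicle counts and 628389 (R)-9b counts, a log2 ratio of 2.76. MT-ND4L (chrM:10470-10766), which shares 7 bases and an mRNA with MT-ND4, had 16280 and 93669 counts, also a log2 ratio of 2.76. The difference within this second shared mRNA was 0.0017 (-0.024 to 0.027). With gene counts the ratios could not be separated in either pair on a shared mRNA. This was not particular to shared mRNAs, since it also held for MT-ND5 and MT-ND1. With estimated transcript counts MT-ATP8 had a log2 ratio of 2.97 (2.874 to 3.062) and MT-ATP6 2.87 (2.851 to 2.893).

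The other complex I genes were lower or alike. MT-ND1 (chrM:3307-4262) had 41908 and 234616 counts, a log2 ratio of 2.72 (2.708 to 2.738), and MT-ND5 (chrM:12337-14148) had 59693 and 332252 counts, a log2 ratio of 2.71 (2.702 to 2.727). MT-ND5 and MT-ND1 differed by -0.0084 (-0.028 to 0.011), although they lie far apart on the chromosome. MT-ND2 (chrM:4470-5511) had 41876 and 209488 counts, a log2 ratio of 2.56 (2.545 to 2.576), below MT-ND1 by a difference of -0.16 (-0.184 to -0.141) despite almost the same vehicle count. MT-ND3 (chrM:10059-10404) had 9145 and 42960 counts and the lowest mRNA ratio, 2.47 (2.437 to 2.502) on the log2 scale. It lies directly beyond MT-CO3 and the transfer RNA MT-TG, and the highest and the lowest mRNA ratios, which were picked as the extremes, thus came from neighbouring genes. MT-CYB, the cytochrome b of complex III (chrM:14747-15887), had 68145 and 362579 counts, a log2 ratio of 2.65 (2.638 to 2.661).

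MT-ND6 (chrM:14149-14673) is the only protein-coding gene on the other, minus, strand, and its mRNA is known to carry little or no poly-A tail. It had 12383 vehicle counts and 68786 (R)-9b counts, a log2 ratio of 2.71 (2.684 to 2.739). The strand setting of the counting is not given in the sources used here, so RNA of the opposite strand cannot be told apart from MT-ND6 or from the minus-strand transfer RNAs. The 12 plus-strand mRNAs together had 2.83, so that MT-ND6 differed from them by -0.12 (-0.145 to -0.090). Within complex I its log2 ratio did not differ from MT-ND5 beyond counting error (difference of MT-ND5 minus MT-ND6 0.0029, -0.027 to 0.033), nor from MT-ND1 (difference of MT-ND6 minus MT-ND1 -0.011, -0.043 to 0.020). The 7 genes with a complete annotated end codon had a median log2 ratio of 2.77 (range 2.71 to 2.99). The 6 with an incomplete one had 2.69 (range 2.47 to 3.16). MT-ATP6 was placed with the 7 by its annotation, although it shares its last base with MT-CO3. Both the highest and the lowest mRNA ratio belonged to genes whose stop codon needs the tail, as shown by the single T that ends MT-CO3 and MT-ND3.

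The composition of the mRNA pool moved accordingly. MT-CO1 made up 23.3% of mitochondrial mRNA counts in vehicle and 26.0% in (R)-9b, and MT-CO3 7.91% and 9.96%. MT-CYB made up 9.74% and 8.61%, MT-ND2 5.99% and 4.98%, and MT-ND4 15.6% and 14.9%. Per kilobase of gene, the order of the 13 mRNAs was nearly the same in both libraries (Spearman's rho 0.99, Pearson's r of the log2 levels 0.99, across 13 genes of the same libraries). Over the 13 mRNAs the log2 ratio had a correlation with the mean level per kilobase of r = 0.44 (rho 0.54) and with gene length of r = 0.077 (rho -0.077), and over the 12 plus-strand genes with the start position of r = -0.11 (rho -0.24). The level comes from the same counts as the ratio. These correlations are descriptions across genes, which are not independent replicates.

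**Figure D3:**
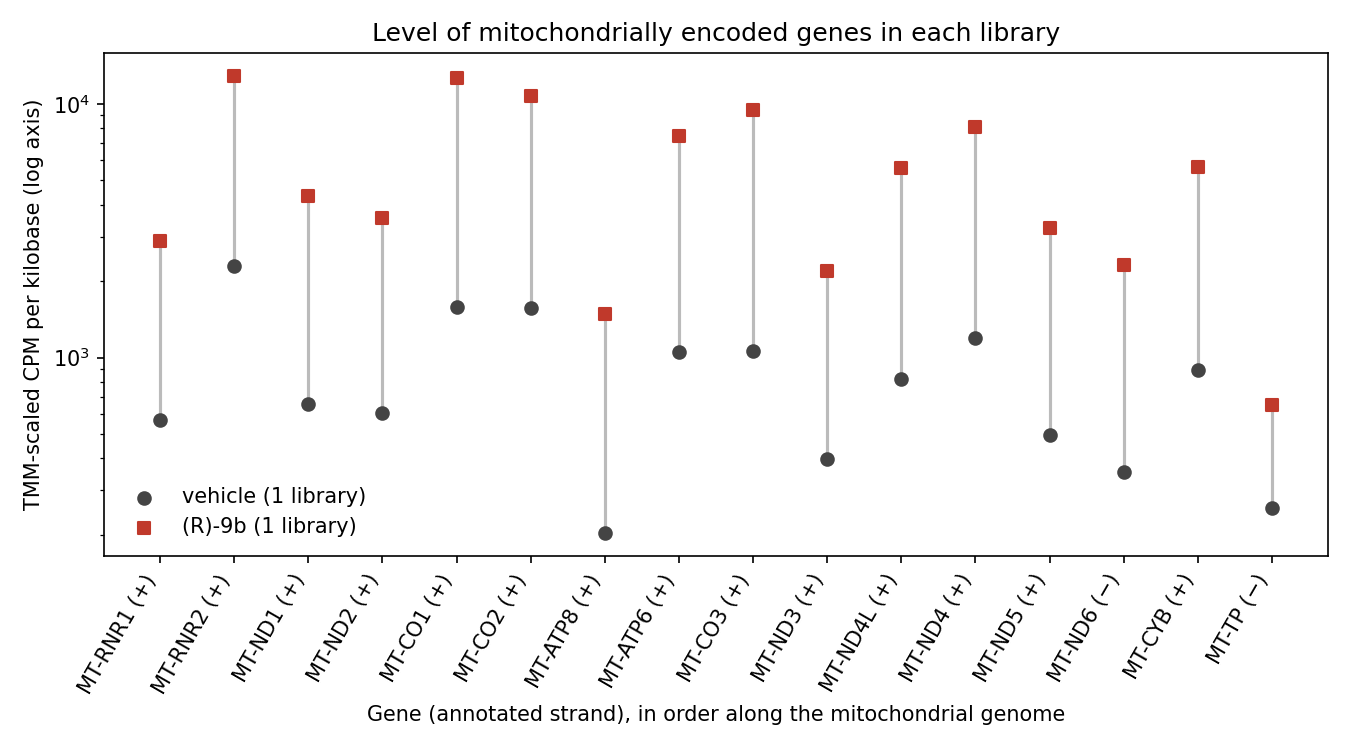
Level of each mitochondrial mRNA, ribosomal RNA and MT-TP in TMM-scaled CPM per kilobase of gene (log axis), in genome order, with vehicle as circles and (R)-9b as squares. MT-RNR2 is highest in both libraries (2293 and 12894), and every gene shown is higher in (R)-9b. MT-ATP8 has the lowest counted level of the coding genes in both (203 and 1490). It shares bases and an mRNA with MT-ATP6, which stands at 1049 and 7493.

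The ribosomal RNAs form the core of the mitochondrial ribosome, which translates the mitochondrial mRNAs. MT-RNR1, of the small subunit (chrM:648-1601), had 35940 vehicle counts and 154713 (R)-9b counts, a log2 ratio of 2.34 (2.327 to 2.360). MT-RNR2, of the large subunit (chrM:1671-3229), had 238063 and 1135062 counts, a log2 ratio of 2.49 (2.485 to 2.498). The difference of MT-RNR1 minus MT-RNR2 was -0.15 (-0.165 to -0.130). Per kilobase, MT-RNR1 stood at 566 and 2872 CPM with vehicle and (R)-9b and MT-RNR2 at 2293 and 12894 CPM, so the more abundant ribosomal RNA also had the larger ratio. Mature mitochondrial ribosomal RNAs have at most short A tails, and these levels are those of a poly-A-selected library.

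The transfer RNAs, short adaptors for translation, were nearly absent from the counts, and the sum was mostly 1 gene. Of the 22 genes, 6 had 0 counts in both libraries, which allows up to 3 counts in each, 12 had 1 to 9 counts in total, and 4 had at least 10. MT-TP, the proline transfer RNA (chrM:15956-16023, minus strand), had 1159 of 1204 transfer RNA counts in vehicle and 2502 of 2600 in (R)-9b, a log2 ratio of 1.35 (1.25 to 1.45). MT-CYB, the nearest coding gene, lies on the plus strand beyond MT-TT. The ratio of MT-TP was lower than that of MT-CYB by a log2 difference of -1.30 (-1.40 to -1.20).

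The 4 transfer RNAs with at least 10 counts all lay on the minus strand. The 8 minus-strand genes summed to 1196 and 2591 counts, and the 14 plus-strand genes, most of which lie between plus-strand mRNAs or ribosomal RNAs, to 8 and 9 counts. MT-TY, for tyrosine (chrM:5826-5891), had 26 and 43 counts, a log2 ratio of 0.96 (0.23 to 1.73). MT-TC, for cysteine (chrM:5761-5826), had 9 and 19 counts, a log2 ratio of 1.32 (0.10 to 2.64). With counts halved, as if both mates of each read pair had been counted, these intervals became -0.095 to 2.08 and -0.44 to 3.33 and include 0. MT-TE, for glutamate (chrM:14674-14742), had 0 and 15 counts, at least 5.90-fold higher in (R)-9b when 15 is taken as exact and set against a floor of 3 counts per library. The lower end of its exact interval is a ratio of 4.23. With halved counts it has 7.5 counts, under the minimum of 10, and is no longer called. MT-TN, for asparagine (chrM:5657-5729), had 2 and 6 counts and was not compared.
The sequences of the 3 transfer RNAs with counts in both libraries and at least 10 in total are shown because they differ from the mRNAs most in ratio. They come from GENCODE 29 and lack the CCA end, which is added after transcription.
MT-TP: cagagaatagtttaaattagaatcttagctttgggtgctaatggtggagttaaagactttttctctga
MT-TY: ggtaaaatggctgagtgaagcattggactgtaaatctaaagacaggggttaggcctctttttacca
MT-TC: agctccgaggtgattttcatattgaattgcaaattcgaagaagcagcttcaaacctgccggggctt
Reads that overlap an annotated neighbour as well are ambiguous, and the authors counted unambiguous reads.

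The nuclear genome holds pseudogene copies of mitochondrial genes, and reads of near-identical sequence can be counted on either. The authors counted uniquely aligned reads, so a read that fits a gene and its copy equally is left out. How far this lowered the level or share of each mitochondrial gene was not tested. The table lists 395 such copies by symbol, of which 74 had a count and 32 had at least 10. Of these 32, the interval lay above a ratio of 1 for 31 and below it for 0, against 29.8% and 31.1% of all genes compared. The minimum was on the sum of both libraries, so some copies passed only through (R)-9b, where they were high. MTCO3P13 had 0 vehicle and 12 (R)-9b counts, and MTND4P20 had 6 and 79. The number above a ratio of 1 is therefore partly a result of this selection. The copies summed to 24009 vehicle counts and 145814 (R)-9b counts, a log2 ratio of 2.84 (2.821 to 2.860). Set against the mitochondrial counts this was 2.46 copy counts per 100 in vehicle and 2.65 per 100 in (R)-9b.

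The 5 copies with the most counts were MTATP6P1 (chr1:633696-634376), MTCO1P12 (chr1:631074-632616), MTCO3P12 (chr1:634376-634922) and MTCO2P12 (chr1:632757-633438), all within 1 block of chromosome 1, and MTND4P12 (chr5:134926660-134928036). MTATP6P1 had 9345 and 57997 counts, a log2 ratio of 2.87. MTCO3P12 had 2097 and 15685 counts, a log2 ratio of 3.14, close to the 3.16 of MT-CO3. MTCO1P12 had 3863 and 21812 counts, a log2 ratio of 2.74, below the 2.99 of MT-CO1. MTCO2P12 had 2250 and 12521 counts and MTND4P12 1756 and 10297 counts, with log2 ratios of 2.71 and 2.79. Over the 22 copies with at least 100 counts 13 lay within 0.25 of their mitochondrial gene on the log2 scale (full range of the difference -0.77 to 0.83). Across these copies the correlation with the log2 ratio of the mitochondrial gene was r = 0.22 (rho 0.19), a description over copies of the same libraries, many of which share a gene. The MTRNR2L genes, nuclear copies of part of MT-RNR2, summed to 4306 and 21305 counts, a log2 ratio of 2.54 (2.497 to 2.592), against 2.49 for MT-RNR2.

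**Figure D4:**
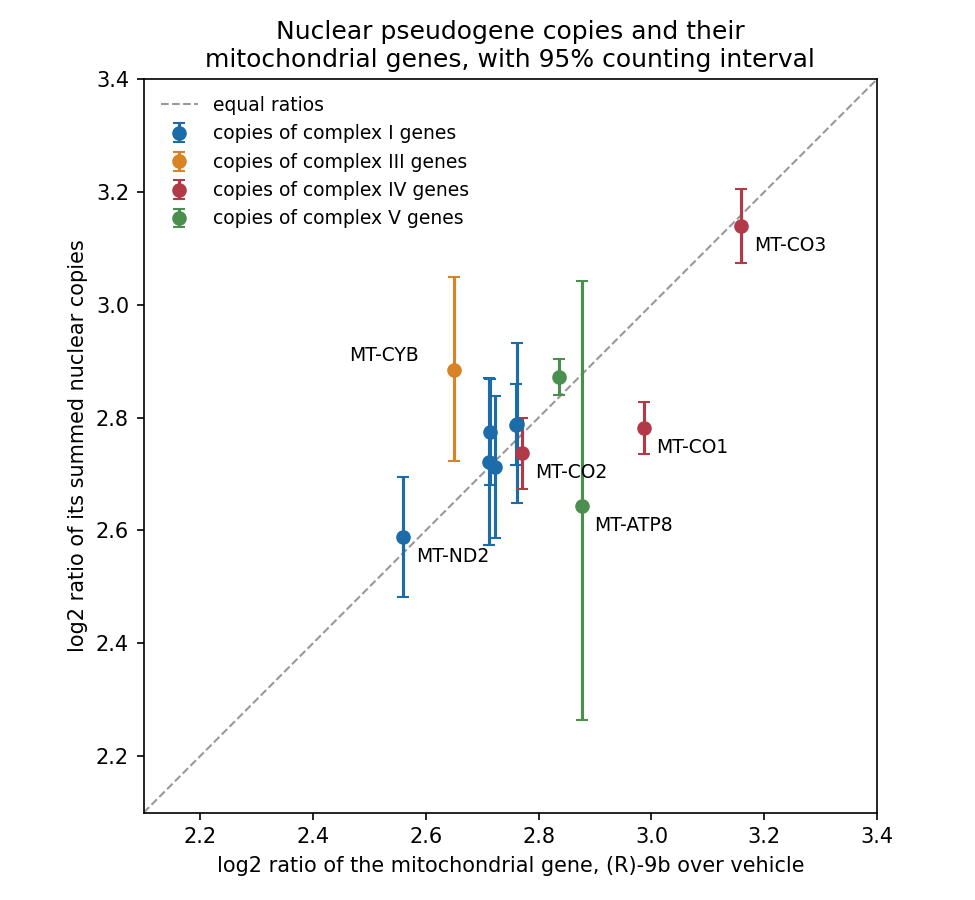
Log2 ratio of (R)-9b over vehicle for the summed nuclear copies of each mitochondrial coding gene (vertical, with 95% counting interval) against that of the mitochondrial gene itself (horizontal), for the genes whose copies had at least 10 counts. Copies of MT-CO3 (3.14) and MT-ND2 (2.59) lie near the line of equal ratios, copies of MT-CO1 (2.78 against 2.99) lie below it, and copies of MT-CYB (2.89 against 2.65) lie above it.

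The nuclear partners of these proteins had ratios near 1. Of 78 nuclear genes for subunits of complexes I to V, the interval lay above a ratio of 1 for 27 and below it for 35, against 29.8% and 31.1% of all genes compared. None was called beyond a ratio of 2 or below 0.5, against 4.2% and 3.44% of all genes compared. The median log2 ratio of the 78 genes was -0.03 (range -0.42 to 1.09). The upper end came from a complex I gene with 20 vehicle and 36 (R)-9b counts (interval 0.26 to 1.95). Complex by complex, the mitochondrial genes had summed log2 ratios of 2.71 for complex I, 2.65 for III, 2.97 for IV and 2.84 for V. The medians of their nuclear subunits were -0.04 over 37 genes, -0.02 over 9, -0.11 over 11 and -0.02 over 17. In complex IV, COX7B had a log2 ratio of 0.45 and COX4I1 of -0.32. In complex I, NDUFB3 had a log2 ratio of 0.45 and NDUFS4, an accessory subunit, of -0.42. In complex V, ATP5MC3 and ATP5MC2, which encode the same ring protein, had log2 ratios of 0.36 and -0.38. Complex II, with no mitochondrial gene, had a median of -0.12 over 4 genes.

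The nuclear factors that copy, process and degrade mitochondrial RNA were compared as lists. Of 10 transcription genes, the interval lay above a ratio of 1 for 6 and below it for 2, with a median log2 ratio of 0.23. Over all genes compared these shares were 29.8% and 31.1%. With estimated transcript counts 1 transcription gene lay below. POLRMT, the polymerase, had a log2 ratio of 0.16 (0.11 to 0.21), TFAM, which bends and packages the DNA, 0.043 (-0.050 to 0.14), and the promoter-opening factor TFB2M -0.17 (-0.28 to -0.068). TEFM, the elongation factor, had 0.21 (-0.013 to 0.44). The largest ratio was that of MTERF2, a member of the termination factor family, with 267 vehicle counts and 655 (R)-9b counts, a log2 ratio of 1.53 (1.32 to 1.74). MTERF1, the founding member of that family, had 0.71 and MTERF4 0.59. TFB1M, the ribosomal RNA methyltransferase, had -0.49. The machinery genes thus lay far below the 2.47 of the lowest mRNA.

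Of 20 genes for processing and modification, 10 intervals lay above a ratio of 1 and 4 below (29.8% and 31.1% over all genes), with a median log2 ratio of 0.16, and with total counts 8 lay below. PRORP, the nuclease that cuts the 5′ ends of transfer RNAs, had a log2 ratio of 0.91 (0.63 to 1.20), and the transfer RNA modifiers TRMU and GTPBP3 had 0.92 and 0.76. MTO1, which works with GTPBP3 on the same base, had -0.83 (-0.92 to -0.75), so the partners went in opposite directions. Of 15 genes for stability, polyadenylation and decay, 11 intervals lay above and 3 below (29.8% and 31.1% over all genes). LRPPRC, which binds and stabilises mitochondrial mRNAs, had 18656 vehicle counts and 9236 (R)-9b counts, a log2 ratio of -0.78 (-0.81 to -0.74), and its partner SLIRP had 0.13 (0.074 to 0.19). SUPV3L1, the helicase of the degrading complex, had -0.60 (-0.66 to -0.53), its nuclease partner PNPT1 0.094 (0.018 to 0.17), and the poly-A polymerase MTPAP 0.078 (-0.032 to 0.19). REXO2, an oligonuclease, had -0.18, and 0.031 (-0.21 to 0.27) with estimated transcript counts. FASTKD1, of a family of mitochondrial RNA-binding proteins, had 0.98 (0.87 to 1.10), FASTKD5 0.49 and ENDOG 0.42.

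Of 17 genes for mitochondrial DNA replication and nucleotide supply, 6 intervals lay above and 5 below, near the 29.8% and 31.1% over all genes, with a median log2 ratio of 0.04. POLG, the DNA polymerase, had a log2 ratio of 0.60 (0.54 to 0.65), and POLG2, its accessory subunit, 0.53. SLC25A36 and SLC25A33, carriers of pyrimidine nucleotides, had -1.19 and -0.55. Of 15 regulators of mitochondrial biogenesis, 3 intervals lay above and 9 below (29.8% and 31.1% over all genes), with a median of -0.35. PPARGC1A, a transcriptional coactivator, had 103 vehicle counts and 27 (R)-9b counts, a log2 ratio of -1.69 (-2.36 to -1.07). NRF1, a transcription factor for nuclear genes of the respiratory chain, had 2389 and 681 counts, a log2 ratio of -1.57 (-1.70 to -1.45). TFEB, a lysosome regulator, had 0.76 and ESRRA 0.23. Both PPARGC1A and NRF1 were called below a ratio of 0.5, as were 3.44% of all genes. A link between these regulators and the mitochondrial mRNAs was not tested.

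Of 15 genes for mitochondrial translation, 5 intervals lay above and 6 below, near the 29.8% and 31.1% over all genes, with a median log2 ratio of 0.01. The number below was 3 with the upper quartile and 3 with halved counts, and the number above was 3 of 14 with estimated transcript counts. MTFMT, which formylates the initiator methionine, had 0.58, and TUFM, the elongation factor, had -0.16. Of 15 mitochondrial proteases and chaperones, 3 lay above and 10 below (29.8% and 31.1% over all genes), with a median of -0.24. HSPA9, the import chaperone, had 50273 and 20144 counts, a log2 ratio of -1.08, LONP1, the matrix protease, had -0.90, and HSPD1, the folding chaperonin, had -0.69. SPG7, an inner-membrane protease subunit, had 0.74.

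**Figure D5:**
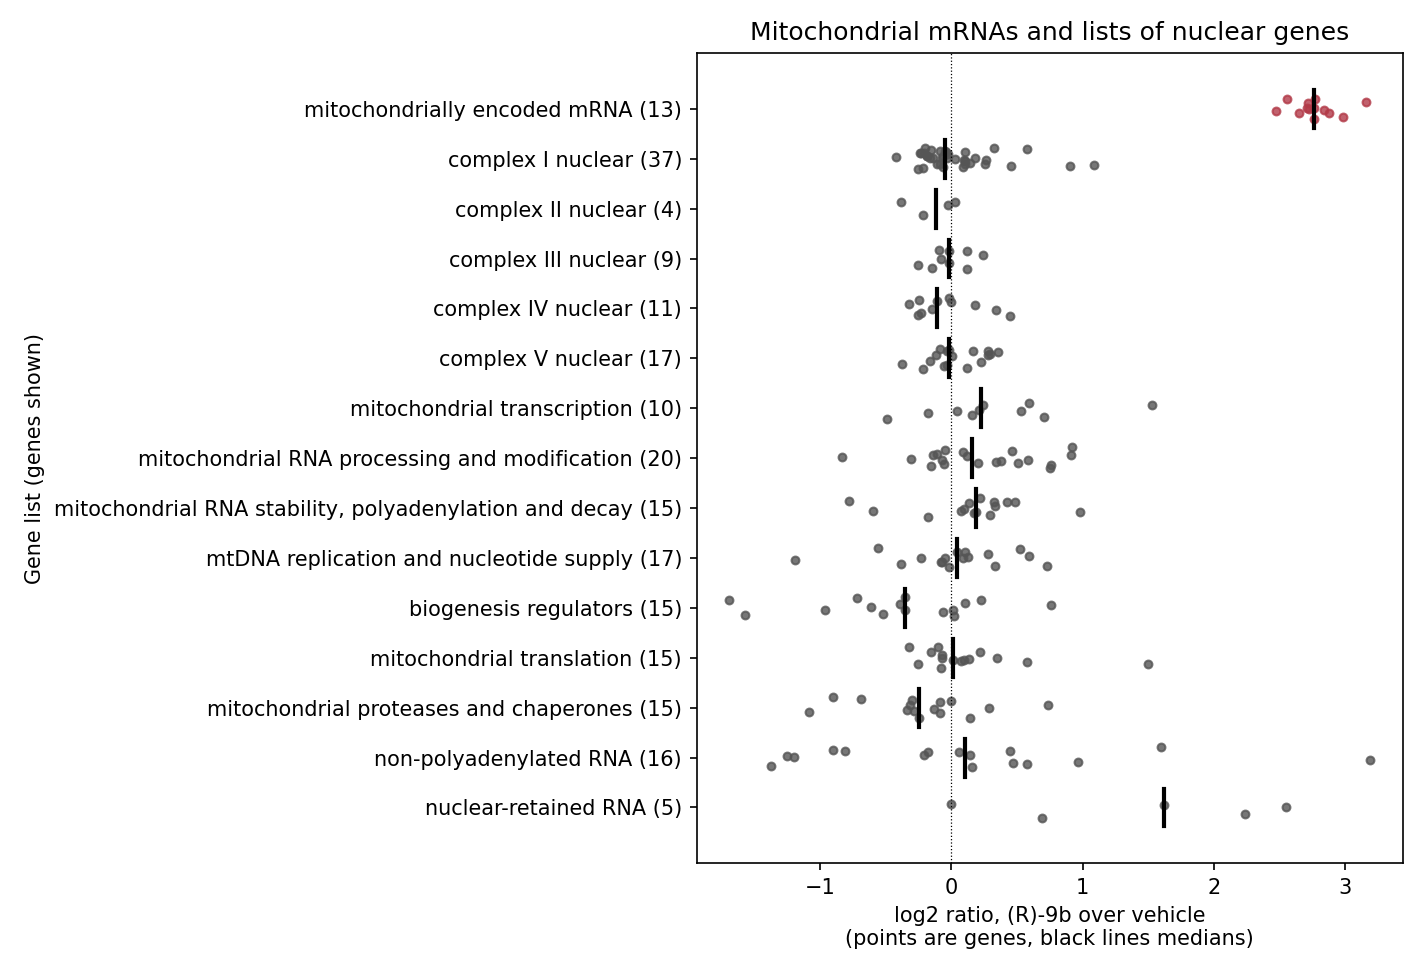
Log2 ratio of (R)-9b over vehicle (TMM-scaled) for each gene of the mitochondrial mRNAs and of the lists of nuclear genes, 1 point per gene with finite ratio and at least 10 counts, with the number of genes in parentheses and the median as a black line. The mitochondrial mRNAs (median 2.76) stand to the right of every list of mitochondrial factors and subunits, and the nuclear-retained RNAs have the next highest median (1.62).

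Nuclear-retained RNAs and RNAs that largely lack a poly-A tail were also compared as lists. Of 5 nuclear-retained RNAs, the interval lay above a ratio of 1 for 3, included it for 2 and lay below it for 0, against 29.8% above and 31.1% below over all genes. With total counts 1 lay below. With estimated transcript counts only 1 of the 5 could be compared, and its interval included a ratio of 1. MALAT1 and NEAT1 were not compared there, so their ratios have no check from those counts. MALAT1 had 8760 vehicle counts and 43534 (R)-9b counts, a log2 ratio of 2.55 (2.518 to 2.584), NEAT1 had 3665 and 9575 counts, a log2 ratio of 1.62, and KCNQ1OT1 had 157 and 215 counts, a log2 ratio of 0.69. TUG1, on the same list, had 0.0005 (-0.052 to 0.053). Of 34 genes for RNAs that largely lack a poly-A tail, 16 had at least 10 counts, and the intervals of 7 lay above and of 7 below a ratio of 1 (29.8% and 31.1% over all genes), with a median log2 ratio of 0.10. With estimated transcript counts 12 could be compared and 3 lay below. RN7SL1, the RNA of the signal recognition particle, had 16772 and 5499 counts, a log2 ratio of -1.37, and SNORA73B, a small nucleolar RNA, had 4 and 31 counts, a log2 ratio of 3.19 (1.69 to 5.16). The 12 histone genes among the 16, some of which also make polyadenylated mRNA, ranged from -1.20 to 1.60. The part of these RNA fractions in the mitochondrial difference was not tested.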

How the data were processed

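Poly-A RNA of C4-2B cells was sequenced in read pairs, 1 library per condition. The authors aligned reads to GRCh38 with STAR (2.5.1a per the labels, while the methods name another version) and deposited gene counts of uniquely aligned unambiguous reads. The labels also name featureCounts 1.4.6-p5 and Salmon 0.8.2, and the strand setting is not given in the sources used here. The authors also deposited CPM values and a moderated log2 scale, whose moderation is not described. Their deposited transcript table holds estimated counts from a tool that is not stated, rounded here. All 3 served as alternatives. The other transcript tables were not used.

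Here 200 repeated lines were dropped, counts were scaled by TMM (edgeR 4.0.16, R 4.3.3), and exact (Clopper-Pearson) 95% intervals of ratios were computed (Python 3.11.15, scipy 1.17.1). Differences between log2 ratios have normal intervals of the log odds ratio. Intervals cover counting error only, since PCR copies cannot be told apart. The scripts were tested on simulated counts. Gene levels per kilobase use GENCODE 29 lengths.

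The members, lists and tests were chosen with earlier results of these data known. All members are accounted for. From each nuclear list the text names at most 3 genes on each side of a ratio of 1, ranked by the interval end nearest 0, plus 12 genes for mitochondrial expression. TUG1 was named after its value was seen. Some of the prostate markers are not reported here.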

Additional observations from a re-analysis of the deposited data

How the results depend on the processing

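With 1 library per condition no replicate could be left out. The log2 ratio of the 13 mRNAs summed, 2.83, was 2.77 with total counts and with the deposited CPM, 2.81 with DESeq2 size factors, 2.86 with the upper quartile and 2.85 with estimated transcript counts. The ribosomal RNAs, 2.47, had 2.41 with total counts and the deposited CPM, 2.45 with DESeq2 size factors and 2.51 with the upper quartile. The median of the 13 mRNAs, 2.76, was 2.70 on the moderated log2 scale and with total counts or deposited CPM, 2.74 with DESeq2 size factors, 2.80 with the upper quartile and 2.78 with estimated transcript counts. Each scaling shifts all genes alike. The mitochondrial share, 1.49% and 9.54%, was 1.11% and 7.70% over protein-coding genes and 1.29% and 8.91% with estimated transcript counts, which hold no mitochondrial ribosomal or transfer RNA, so their sums were not run there. The number of genes called, 17, ranged from 13 to 18. The 13 came from estimated transcript counts, where only the 13 mRNAs are present and all 13 were called. TMM without mitochondrial genes, added nuclear copies and halved counts left the sums of mRNAs and ribosomal RNAs within their intervals. With gene counts the log2 ratios of NDUFA13, NDUFV1 and REXO2 were 0.58, -0.23 and -0.18. With estimated transcript counts they changed sign (-0.0035, 0.00080 and 0.031), with intervals that include 0. The cause was not tested. Halved counts left 16 genes called, without MT-TE. With total counts, 10 nuclear complex V genes lay below a ratio of 1, against 5, 9 complex I genes above it, against 14, and 8 processing genes below it, against 4. With estimated transcript counts, 11 complex I genes lay below, against 18, and 2 complex III genes, against 4. Genes with few counts, the transfer RNAs above all, are limited by depth.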
